A study of Mus musculus with 4 samples.

Results

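The 42 genes described here encode the enzymes and transporters that build, sulfate and edit glycosaminoglycan chains. They were taken by gene symbol from the per-library gene tables, and all 42 were found among the 17575 genes listed in any library. They cover linker assembly (6 genes), chondroitin chain initiation and polymerisation (6), chondroitin and dermatan sulfation and epimerisation (9), heparan chain initiation and polymerisation (5), heparan modification (8), sulfate and sugar donor supply (6) and the extracellular endosulfatases (2). RNA-seq was done on rib chondrocytes of C57/Bl6 mice aged 10 days, freed from the cartilage by overnight collagenase, then filtered and plated before RNA was taken. Of the 4 libraries, 2 were wild type and 2 came from mice with both copies of Kdm6a and Kdm6b floxed and a Col2Cre transgene, called the knockout here. Col2Cre is by its name a Cre recombinase under a type II collagen promoter, so deletion is directed to cells that use that promoter. Kdm6a and Kdm6b encode the histone demethylases that remove methyl groups from lysine 27 of histone H3. No label says whether the wild type mice carried floxed alleles or Cre, or whether animals were pooled. The design text mentions triplicates, and the present values come from 2 libraries a group.

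A glycosaminoglycan is a long, unbranched sugar chain carried by a core protein, and chain and protein together form a proteoglycan. A short linker starting with xylose is built on a serine of the core protein, and the next sugar added commits the chain to chondroitin or to heparan sulfate. Polymerases then extend the chain, and epimerases and sulfotransferases in the Golgi modify it, using PAPS, the activated form of sulfate. Cartilage matrix is rich in aggrecan, whose many chondroitin sulfate chains hold water by their negative charge. Chondrocytes take up sulfate through Slc26a2 and convert it to PAPS with Papss1 and Papss2, and inherited loss of these steps causes skeletal dysplasia.

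Each library held 31178248 to 32332044 estimated counts over 16199 to 16514 listed genes, and 13773 genes passed a filter on low counts and were tested. Values in CPM are counts scaled to library size. The targeted genes were lower in both knockout libraries. Kdm6a was at 54.8 ± 3.0 CPM in wild type and 30.0 ± 2.0 in the knockout (SD, n = 2 each), or -0.87 on the log2 scale (SE 0.087, adjusted p = 0.00489 by edgeR's quasi-likelihood test). Kdm6b was at 125 ± 9.2 CPM in wild type and 48.8 ± 3.7 in the knockout, or -1.35 on the log2 scale (SE 0.091, adjusted p = 0.00174 by edgeR). Chondrocyte markers dominated every library: the 8 genes of that list summed to 7236 and 7708 FPKM in wild type and 10380 and 10780 in the knockout, where Col2a1, Col9a1 and Col11a1 rose and Matn1 and Comp fell. FPKM is a fragment count scaled to library size and to gene length. The other lists summed to far less. Endothelial markers gave 27.9 to 31.2 FPKM in wild type and 19.3 to 23.4 in the knockout, all 6 genes lower without overlap and 3 of them passing. For this and the lists below, 30.7% of all tested genes were lower without overlap and 5.63% passed downward. Erythroid markers gave 28.1 to 33.4 against 15.4 to 17.1, with 2 of 3 tested genes, Hba-a1 and Hbb-b1, passing downward. The other, Alas2, was above 0 (log2 fold change 0.21), with overlapping groups. Osteoblast markers gave 4.50 to 5.04 against 1.55 to 2.26, all 5 genes lower without overlap and 1 of them passing. Fibroblast markers gave 124 to 161 against 87.8 to 128, with 4 of 6 genes below 0 in log2 fold change, 2 of them without overlap and 1 passing. No tested macrophage gene (5) or muscle gene (4) passed. Of the 5 macrophage genes 4 were below 0 in log2 fold change and 1 above. Those lower without overlap were 3, Ptprc (-1.45), Csf1r (-0.76) and Cd68 (-0.24). Macrophage markers gave 14.3 to 17.2 FPKM against 13.1 in each knockout library, and muscle markers 4.27 to 4.76 against 2.96 and 11.6. C1qa was at 0 in 1 library. The part of these marker shifts in the results that follow was not tested, and fewer cells of a type and less RNA per cell cannot be told apart in such bulk samples.

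These chondrocytes listed reads for nearly the whole pathway. Of the 42 genes, 3 had a mean deposited level over 100 FPKM, 31 lay between 10 and 100, 6 between 1 and 10 and 2 under 1, with a median of 17.3 FPKM. Ugdh, the dehydrogenase that makes UDP-glucuronic acid, was the most abundant, at 374, 359, 462 and 417 FPKM in wild type 1, wild type 2, knockout 1 and knockout 2, the order used for all values in 4 libraries below. Papss2 followed at 114, 115, 207 and 192 FPKM, and Chst11, the main chondroitin 4-O-sulfotransferase of cartilage, at 105, 103, 113 and 123 FPKM. At the other end, Chst3 stood at 0.75 to 0.91 FPKM and Chst13 at 0 to 0.04 FPKM. Chst13 held too few reads to be tested, so 41 members were tested. Summed over the 42 genes, the level was 1329 and 1296 FPKM in wild type and 1565 and 1524 FPKM in the knockout. The 4 most abundant genes made up 50.0% and 50.4% of that sum in wild type and 54.0% and 52.7% in the knockout.

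**Figure D1:**
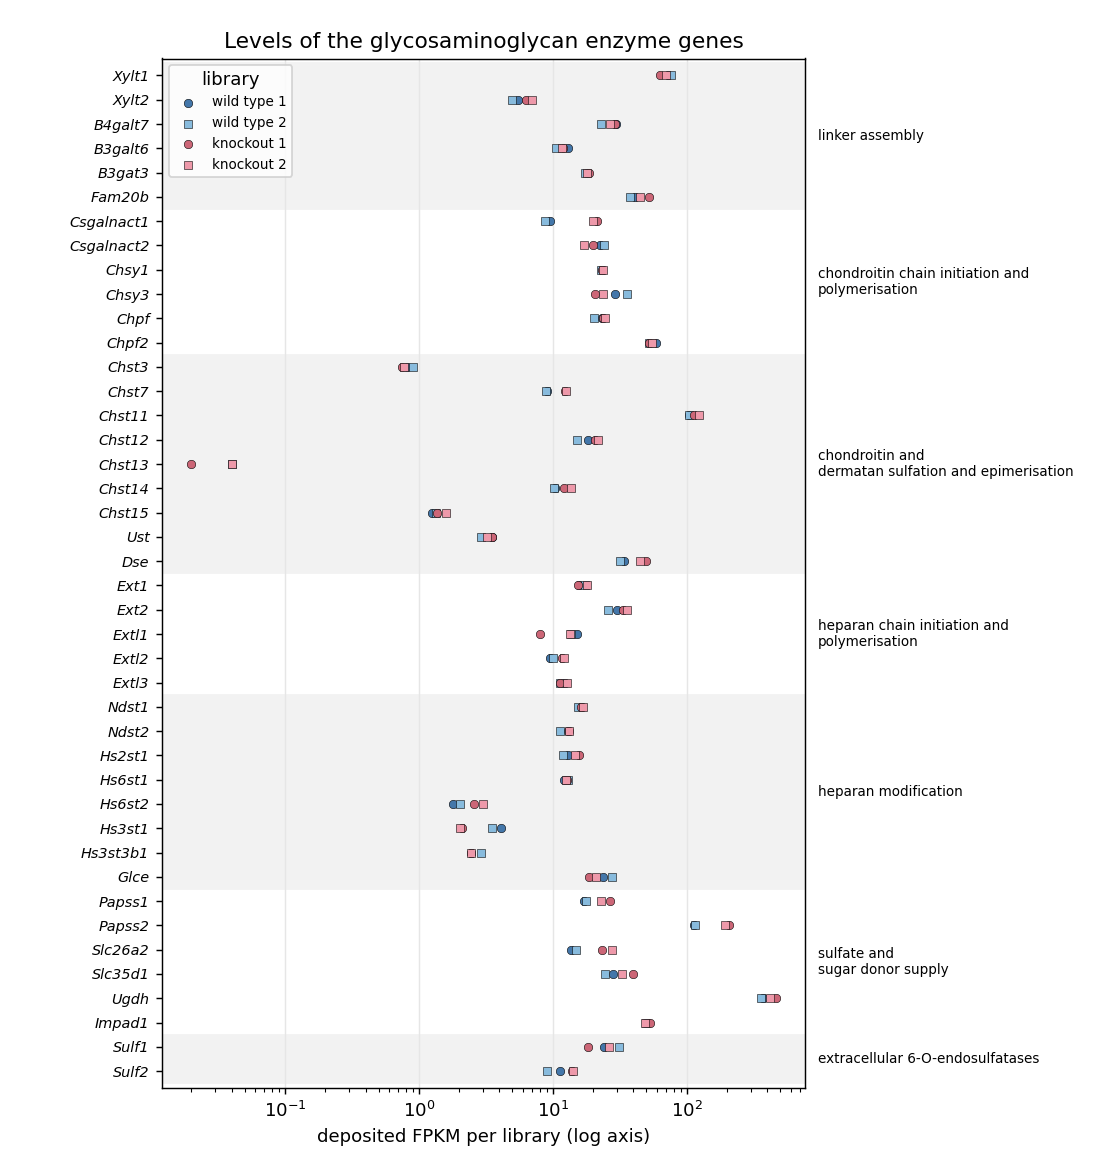
Deposited FPKM of the 42 genes on a log axis, 1 point per library, grouped by role, with circles for replicate 1 and squares for replicate 2. Ugdh, Papss2 and Chst11 lie above 100 FPKM and Chst13 below 0.1, and Chst13 is listed at 0 in wild type 1 and has no point there.

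Between knockout and wild type, 6 of 41 tested members rose, 2 fell, and 33 were not called at an edgeR quasi-likelihood adjusted p under 0.05, computed over all tested genes. Over all 13773 genes 9.25% passed, 3.62% upward and 5.63% downward, and the members' share was 19.5%. The median SE was 0.0964 for the members and 0.121 over all tested genes. The list was chosen with earlier results of these data known. The part of either in the members' share was not tested. The genes that rose were Csgalnact1, Slc26a2, Papss2, Dse, Papss1 and Chst7, and those that fell were Hs3st1 and Chsy3. The members' median log2 fold change was 0.09, with 26 above 0 and 15 below, against a median of 0.0044 over all tested genes. The 2 groups did not overlap for 21 members with the knockout higher and 8 with the knockout lower, where 30.9% and 30.7% of all tested genes did so. Upward calls were 39.1% of all calls in this fit and 52.6% with limma on log2(FPKM + 1), which called the same members except Chsy3. Each of the 8 kept its direction in every alternative tried. All used these same libraries, in which the groups of the 8 did not overlap. A reversed sign was therefore hardly possible, and the kept direction is no separate support. Without knockout 2, 5 members fell, with Extl1, Glce and Sulf1 added to these 2. With either wild type library left out no gene of any kind passed the adjusted threshold, while 17 members (without wild type 1) and 11 (without wild type 2) had an unadjusted p under 0.05, where 24.4% and 18.3% of all tested genes did.

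**Figure D2:**
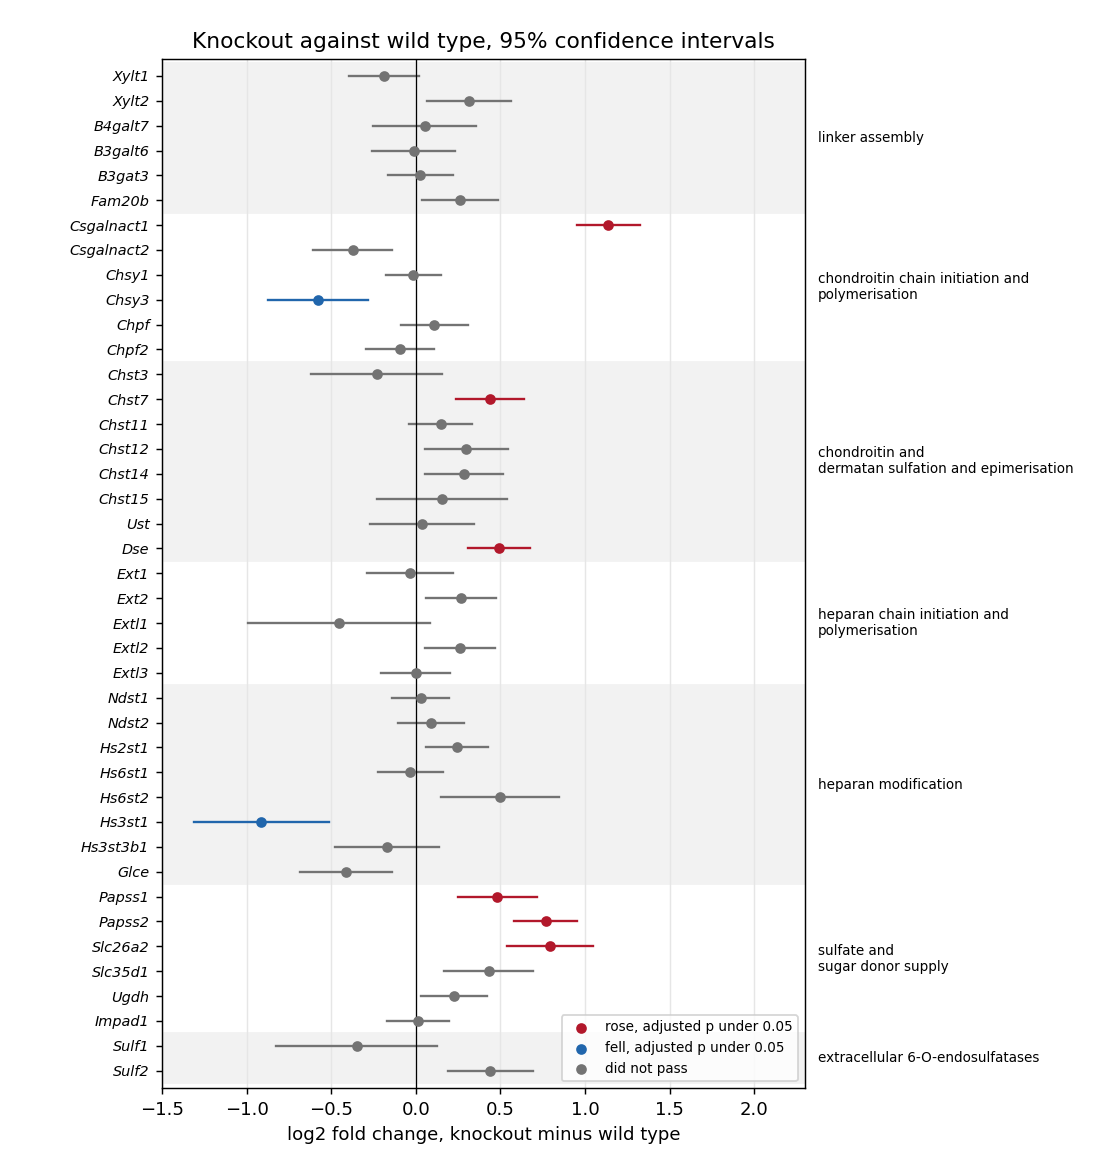
Log2 fold change, knockout minus wild type, of the 41 tested genes by role, with 95% confidence intervals from the edgeR fit as lines. Red points mark the 6 genes that rose, blue points the 2 that fell, and grey points the 33 that did not pass.

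Sulfate and sugar donor supply held the largest share of members that rose: 3 of 6 rose, none fell, and the median log2 fold change was 0.46. For this and the roles below, 3.62% of all tested genes rose and 5.63% fell. The roles hold few genes each, and differences between roles were not tested. Slc26a2, the sulfate transporter of the plasma membrane that is mutated in diastrophic dysplasia, was at 53.4, 59.4, 89.1 and 106 CPM. Both knockout libraries lay above both wild type libraries, a 1.73-fold difference (log2 fold change 0.79, SE 0.106, edgeR adjusted p = 0.0112). Papss2, the PAPS synthase mutated in brachymorphic mice, was at 411, 427, 739 and 688 CPM. The replicates of each group lay close together, and the knockout was 1.70-fold higher (log2 fold change 0.77, SE 0.077, edgeR adjusted p = 0.00489). Its paralogue Papss1 was at 44.5, 48.2, 69.7 and 59.8 CPM, 1.40-fold higher in the knockout (log2 fold change 0.48, SE 0.097, edgeR adjusted p = 0.0327). Without knockout 1, its log2 fold change was 0.37 and the adjusted p 0.0849, and with no filter on low counts its adjusted p was 0.066. Papss2 exceeded Papss1 per length in every library, by 6.71 and 6.51 times in wild type and by 7.76 and 8.38 times in the knockout.

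The other 3 genes of this group did not pass. Slc35d1, the carrier of UDP-sugars into the endoplasmic reticulum whose loss causes Schneckenbecken dysplasia, was at 81.2, 73.6, 114 and 94.1 CPM. Its groups did not overlap, and its log2 fold change was 0.43 (95% interval 0.16 to 0.69, edgeR adjusted p = 0.0615). It passed without knockout 2 (edgeR adjusted p = 0.0103) and had an adjusted p of 0.177 without knockout 1. Ugdh was at 921, 906, 1122 and 1015 CPM, a log2 fold change of 0.23 (95% interval 0.03 to 0.42, edgeR adjusted p = 0.128). Impad1, the Golgi phosphatase that clears the by-product of sulfation, was at 232, 238, 247 and 226 CPM. Its groups overlapped, with a log2 fold change of 0.01 (95% interval -0.17 to 0.20).

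The sulfate route can be followed beyond the members. Slc35b2, the main carrier of PAPS into the Golgi, was at 72.9, 69.5, 95.2 and 89.1 CPM and rose (log2 fold change 0.37, edgeR adjusted p = 0.0315). Without knockout 1 its adjusted p was 0.105. Bpnt1, the cytosolic phosphatase that recycles the by-product of PAPS use, was at 59.0, 53.8, 71.9 and 70.0 CPM and rose (log2 fold change 0.33, edgeR adjusted p = 0.0477). Its adjusted p was 0.137 without knockout 1 and 0.0819 without knockout 2. Slc35b3, another PAPS carrier, was at 19.9, 18.4, 19.4 and 16.1 CPM, with overlapping groups. Of the 20 tested genes of nucleotide sugar and sulfate supply outside the members, 3 rose, Slc35b2 and Bpnt1 among them, none fell, and the median log2 fold change was 0.07. Slc26a1 (log2 fold change 0.52), Slc26a6 (-0.12) and Slc13a4 (-0.22), also tested on this list, did not pass. The share of the 20 that passed was 15.0%, where 9.25% of all tested genes passed in either direction. Without knockout 1, 0 rose, and without knockout 2, 2 rose and 1 fell.

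**Figure D3:**
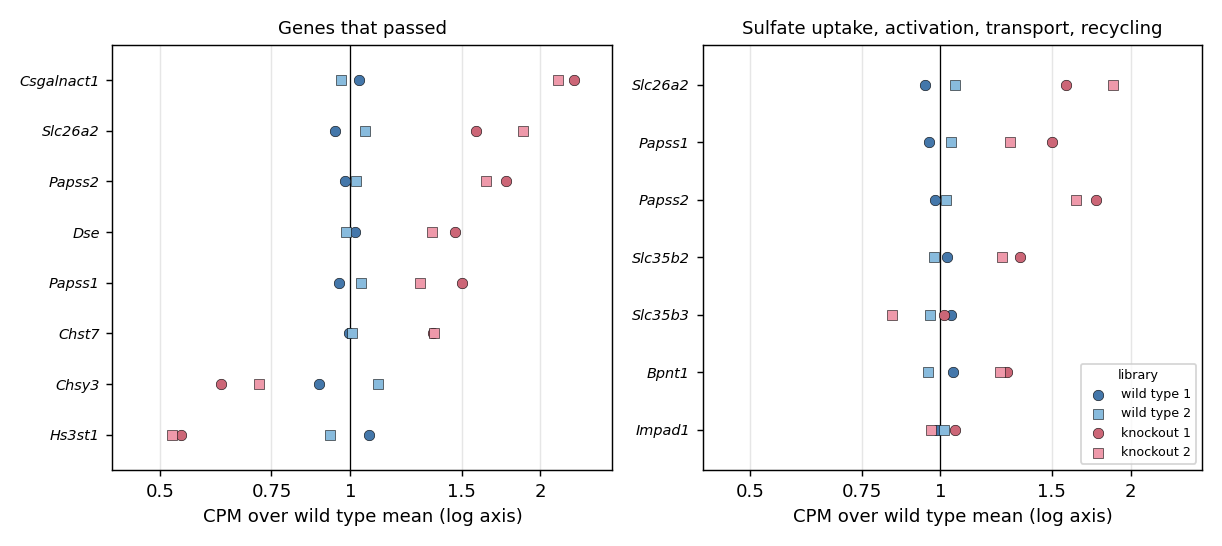
CPM in each library divided by the wild type mean, on a log axis, for the 8 genes that passed (left) and for 7 genes of sulfate uptake, activation, transport and recycling (right). For each of the 8 genes the 2 knockout libraries fall on one side of both wild type libraries, while Slc35b3 and Impad1 overlap.

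Upstream sequences are shown for the genes that passed and that have a matching entry, so that the base composition before their start sites can be read beside their fold changes. The 250 bases before the start site were available for 31 of the 42 genes, in 35 windows, from RefSeq on mouse GRCm38.p6. Among the 8 genes that passed these were Papss1, Papss2 (2 start sites), Chst7 and Hs3st1. Capitals mark CG dinucleotides, the letters CG searched on the gene's strand and the same on the other strand. All run 5′ to 3′ on the gene's strand and end at the base before the start.
Papss1 chr3:131564518-131564767 plus strand: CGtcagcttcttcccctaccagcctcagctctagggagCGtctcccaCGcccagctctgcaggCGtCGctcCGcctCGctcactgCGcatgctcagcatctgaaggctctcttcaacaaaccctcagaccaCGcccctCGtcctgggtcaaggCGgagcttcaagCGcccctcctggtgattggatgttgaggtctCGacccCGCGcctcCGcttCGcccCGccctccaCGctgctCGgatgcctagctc
Papss2 upstream start chr19:32595465-32595714 plus strand: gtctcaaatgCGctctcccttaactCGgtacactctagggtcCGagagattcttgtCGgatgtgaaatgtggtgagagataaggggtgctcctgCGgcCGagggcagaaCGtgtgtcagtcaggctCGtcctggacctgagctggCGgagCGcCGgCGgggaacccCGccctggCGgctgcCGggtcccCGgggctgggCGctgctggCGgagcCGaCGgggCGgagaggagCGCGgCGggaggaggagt
Papss2 downstream start chr19:32619755-32620004 plus strand: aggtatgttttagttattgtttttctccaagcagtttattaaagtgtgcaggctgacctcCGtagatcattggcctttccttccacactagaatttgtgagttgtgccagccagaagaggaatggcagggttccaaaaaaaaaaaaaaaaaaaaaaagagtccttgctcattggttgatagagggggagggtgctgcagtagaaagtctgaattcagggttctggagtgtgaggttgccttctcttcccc
Chst7 chrX:20059320-20059569 plus strand: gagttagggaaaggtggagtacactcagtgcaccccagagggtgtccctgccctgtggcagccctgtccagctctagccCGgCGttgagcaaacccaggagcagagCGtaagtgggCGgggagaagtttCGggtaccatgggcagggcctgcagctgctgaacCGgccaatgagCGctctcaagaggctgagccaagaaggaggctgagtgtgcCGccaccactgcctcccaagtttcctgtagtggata
Hs3st1 chr5:39644632-39644881 minus strand: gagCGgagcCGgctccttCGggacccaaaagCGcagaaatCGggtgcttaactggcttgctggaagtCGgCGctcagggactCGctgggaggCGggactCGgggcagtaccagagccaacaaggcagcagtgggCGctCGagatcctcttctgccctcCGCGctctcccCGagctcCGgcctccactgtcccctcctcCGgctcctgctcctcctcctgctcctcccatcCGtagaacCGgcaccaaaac
Papss1 holds 20 CG in its window and Hs3st1 holds 19, Chst7 holds 8, and the Papss2 starts differ, with 24 upstream and 1 downstream. The estimated counts are per gene and do not separate these Papss2 starts. Member windows held a median of 17 CG (range 1 to 38) and 64.0% G and C, and 33 of the 35 were above the median of 6 CG over 32851 windows of all genes. Member windows were kept only near the start of a transcript listed in these data, and the windows of all genes were not selected so. The sets are therefore unlike, and the part of that selection in the difference was not tested. At least 1 CG was in 92.1% of all windows. Papss1, Papss2 at its upstream start and Hs3st1 lay above the upper quartile of 16 CG over all windows, which is close to the member median of 17. Windows above that quartile thus came both from genes that rose and from the gene that fell. Chst7, with 8 CG, and Papss2 at its downstream start, with 1, lay below the quartile, and both genes rose. The other genes that passed had no matching window. This describes the sequence alone.

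Chondroitin chain initiation and polymerisation held a gene that rose and a gene that fell, with 4 of 6 not passing and a median log2 fold change of -0.05. Csgalnact1 adds the first N-acetylgalactosamine that commits the linker to chondroitin. It was at 38.3, 35.8, 83.8 and 79.1 CPM, and every knockout value was above 79 CPM and every wild type value below 39. This difference was the largest upward or downward among the 41 tested members (log2 fold change 1.14, SE 0.077, edgeR adjusted p = 0.00181). Csgalnact2, its paralogue with the same reaction, was at 83.7, 91.6, 72.9 and 62.4 CPM. Its groups did not overlap, in the opposite direction, and its log2 fold change was -0.37 (95% interval -0.61 to -0.14, edgeR adjusted p = 0.0638). It passed without knockout 1 (edgeR adjusted p = 0.0277) and had an adjusted p of 0.219 without knockout 2. Per length, Csgalnact1 was 0.424 and 0.362 times Csgalnact2 in wild type and 1.07 and 1.18 times in the knockout, so the order of the pair differed between the groups.

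Chsy3, one of the chondroitin synthases, was at 115, 142, 80.2 and 92.1 CPM and fell (1.49-fold lower in the knockout, log2 fold change -0.58, SE 0.123, edgeR adjusted p = 0.0383). The wild type libraries differed from each other by more than the knockout libraries did, and without knockout 1 the log2 fold change was -0.48 with an adjusted p of 0.0632. It also did not pass with no filter on low counts (edgeR adjusted p = 0.0763) or with limma on log2(FPKM + 1) (adjusted p = 0.0552). Chsy1, the related synthase, was at 97.4, 99.4, 96.9 and 97.7 CPM. Its libraries nearly coincided, and the 95% interval of its log2 fold change was -0.18 to 0.15. Chpf2, the most abundant gene of this group per length, was at 223, 201, 192 and 205 CPM with overlapping groups (log2 fold change -0.09, 95% interval -0.29 to 0.11). The ratio of Chsy3 to Chsy1 per length was 1.27 and 1.54 in wild type and 0.892 and 1.01 in the knockout. Chpf, a partner of the synthases, had a log2 fold change of 0.11. The group's summed level was 168 and 164 FPKM in wild type and 161 and 164 FPKM in the knockout.

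Chondroitin and dermatan sulfation and epimerisation had 2 genes that rose and 6 of 8 tested that did not pass, with a median log2 fold change of 0.22. Dse, the epimerase that turns glucuronic into iduronic acid and so chondroitin into dermatan, was at 144, 140, 208 and 191 CPM. The knockout libraries were 1.41-fold higher (log2 fold change 0.49, SE 0.077, edgeR adjusted p = 0.0163). Its paralogue Dsel, outside the members, was at 37.7, 39.7, 43.0 and 42.7 CPM, with an edgeR adjusted p of 0.242. Chst7, a chondroitin 6-O-sulfotransferase on the X chromosome, was at 20.3, 20.5, 27.6 and 27.7 CPM. Its replicates nearly coincided within each group (log2 fold change 0.44, SE 0.084, edgeR adjusted p = 0.0283), and its adjusted p was 0.0703 without knockout 1 and 0.0679 without knockout 2. The Y-linked Ddx3y and Uty were at most 0.158 CPM in any library. Chst3, the other 6-O-sulfotransferase, was at 5.06, 5.79, 4.55 and 4.70 CPM and did not pass (log2 fold change -0.23, 95% interval -0.62 to 0.16).

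Chst11 was at 583, 591, 622 and 679 CPM. Its knockout libraries were above both wild type libraries, but the log2 fold change of 0.15 did not pass (95% interval -0.04 to 0.33, edgeR adjusted p = 0.254). Chst12, another 4-O-sulfotransferase, and Chst14, which sulfates dermatan, had log2 fold changes of 0.30 and 0.28 without overlap between groups and without passing. Chst15, which adds a further sulfate to already sulfated units, and Ust, which sulfates the uronic acid, had overlapping groups. Summed per length, the 4-O-sulfotransferases Chst11 and Chst12 exceeded the 6-O-sulfotransferases Chst3 and Chst7 by 12.5 and 12.1 times in wild type and by 10.1 and 10.9 times in the knockout. Chst7 exceeded Chst3 by 11.0 and 9.78 times in wild type and by 16.6 and 16.2 times in the knockout. These ratios describe RNA levels, and chain sulfation was not measured.

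Linker assembly had no gene that passed in either direction, out of 6, with a median log2 fold change of 0.04. Xylt1, the xylosyltransferase that starts the linker, was at 222, 242, 193 and 213 CPM. Its knockout values lay just below the wild type values (log2 fold change -0.19, 95% interval -0.40 to 0.02, edgeR adjusted p = 0.199). Fam20b, the kinase that phosphorylates the linker xylose, was at 174, 166, 219 and 188 CPM (log2 fold change 0.26, 95% interval 0.04 to 0.49, edgeR adjusted p = 0.126). Xylt2, the paralogue of Xylt1, had a log2 fold change of 0.31, and Xylt1 exceeded it per length by 13.1 and 15.4 times in wild type and by 10.0 times in both knockout libraries. The galactosyltransferases B4galt7 and B3galt6 and the glucuronyltransferase B3gat3, which complete the linker, had log2 fold changes between -0.01 and 0.05.

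Heparan chain initiation and polymerisation had no gene that passed, out of 5, with a median log2 fold change of -0.0004. Ext1 and Ext2 form the heparan polymerase. Ext1 was at 54.8, 62.8, 53.2 and 61.7 CPM, with overlapping groups (95% interval of the log2 fold change -0.29 to 0.22). Ext2 was at 86.9, 76.7, 95.5 and 101 CPM (log2 fold change 0.27, 95% interval 0.06 to 0.47, edgeR adjusted p = 0.105). Extl1, a relative of the polymerases, was at 62.6, 58.5, 32.7 and 55.7 CPM. Knockout 1 alone lay far below the other 3 libraries, and the log2 fold change of -0.45 had a wide interval of -0.99 to 0.08. Extl2 had a log2 fold change of 0.26 and did not pass, and Extl3, which starts heparan chains, had a 95% interval of -0.21 to 0.20.

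Heparan modification had 1 gene that fell and 7 of 8 that did not pass, with a median log2 fold change of -0.0028. Hs3st1, the 3-O-sulfotransferase known for making the antithrombin-binding site of heparin, was at 6.93, 5.99, 3.48 and 3.38 CPM. Both knockout libraries were near the same level, 1.88-fold below wild type (log2 fold change -0.91, SE 0.166, edgeR adjusted p = 0.0243). Hs3st1 is also expressed by endothelial cells, whose marker sum was lower in the knockout, as given above, and the part of those cells in this fall was not tested. Hs3st3b1, another 3-O-sulfotransferase, was at 14.9, 18.1, 14.6 and 14.7 CPM and did not pass. Glce, the epimerase of heparan sulfate, was at 110, 133, 85.7 and 97.0 CPM. Its groups did not overlap, and its log2 fold change was -0.41 (95% interval -0.68 to -0.14, edgeR adjusted p = 0.0703). Ndst1, which removes acetyl groups and adds N-sulfate, was at 101, 96.8, 98.4 and 103 CPM with overlapping groups (95% interval -0.14 to 0.20).

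The other sulfotransferases of heparan did not pass. Hs6st2, a 6-O-sulfotransferase, was at 8.10, 9.32, 11.3 and 13.3 CPM (log2 fold change 0.50, edgeR adjusted p = 0.0821). Hs2st1, the 2-O-sulfotransferase, had a log2 fold change of 0.24 (edgeR adjusted p = 0.098), and Hs6st1 and Ndst2 had values of -0.03 and 0.09. Sulf1 and Sulf2, secreted enzymes that remove 6-O-sulfate from heparan outside the cell, did not pass either. Sulf2 was at 43.3, 35.7, 52.9 and 54.1 CPM, without overlap, and lay just outside the threshold (log2 fold change 0.44, 95% interval 0.19 to 0.69, edgeR adjusted p = 0.0508). Among the other settings, it passed with upper-quartile scaling, with the transcript entries summed and with DESeq2, as well as in the fit with replicate numbers as a block. Sulf2 did not pass with RLE scaling, with no filter on low counts or in any limma fit. Sulf1 was at 111, 149, 84.1 and 121 CPM, with replicates of each group far apart and overlapping groups (log2 fold change -0.35, 95% interval -0.82 to 0.13).

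Because the summed chondrocyte markers were higher in the knockout, the 6 genes that rose were also set against Acan and Col2a1 within each library, per length. Per 100 FPKM of Acan, the aggrecan core protein, Papss2 was at 13.1 and 14.2 FPKM in wild type and 18.2 and 18.8 in the knockout. Csgalnact1 was at 1.11 and 1.08 against 1.87 and 1.97, and Slc26a2 at 1.58 and 1.84 against 2.04 and 2.70. Dse was at 3.88 and 3.93 against 4.32 and 4.42, and Papss1 at 1.95 and 2.18 against 2.34 and 2.25. Chst7 overlapped, at 1.04 and 1.10 against 1.09 and 1.22. Per 100 FPKM of Col2a1, Csgalnact1 was at 0.184 in both wild type libraries and at 0.282 and 0.271 in the knockout. Papss2 was at 2.18 and 2.42 against 2.75 and 2.59. Slc26a2 overlapped between groups on this scale, at 0.263 and 0.313 in wild type and 0.308 and 0.371 in the knockout. Dse, at 0.646 and 0.668 against 0.653 and 0.608, and Papss1, at 0.325 and 0.371 against 0.354 and 0.309, overlapped too. Chst7 was lower in the knockout on this scale, at 0.173 and 0.187 against 0.165 and 0.168. Relative to Col2a1, then, Csgalnact1 and Papss2 were the 2 of the 6 that were higher in the knockout without overlap. The 6 were taken because they rose in these same libraries. In CPM, 30.9% of all tested genes were higher in the knockout without overlap, and the share relative to Col2a1 was not computed. Both references were higher in the knockout, with log2 fold changes of 0.55 (Col2a1) and 0.33 (Acan). Of the 8 chondrocyte markers 5 were above 0 and 3 below, with Sox9 at -0.19, Comp at -1.84 and Matn1 at -2.10. Col2a1 made up most of the marker sum, at a mean of 4994 FPKM in wild type and 7487 in the knockout. Ratios to another marker could differ and were not computed. The ratios to Acan and Col2a1 had no test of their own.

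Among the core proteins that carry the chains, genes moved in both directions. Of 34 tested, 2 rose, 3 fell and 29 did not pass, and the median log2 fold change was -0.08. The share that passed was 14.7%, where 9.25% of all tested genes passed, 3.62% upward and 5.63% downward. Acan, at 6452, 6175, 8365 and 7504 CPM, did not pass (log2 fold change 0.33, edgeR adjusted p = 0.0687). Its groups did not overlap, with the knockout higher, and it passed with DESeq2 (adjusted p = 0.0089). Ogn and Epyc, small leucine-rich proteoglycans, rose by log2 fold changes of 1.95 and 0.87, and Srgn, the intracellular proteoglycan serglycin, and Cd44, a hyaluronan receptor that can carry chains, fell by 0.83 and 0.74 on the log2 scale. Dcn, decorin, fell as well, by 1.06. Without knockout 1 this list had 6 genes upward, and without knockout 2 it had 4 upward and 5 downward. Among 15 tested chain synthesis genes outside the members, Chst10, which makes the HNK-1 epitope, rose (log2 fold change 0.51, edgeR adjusted p = 0.0435). It was at 10.5, 10.4, 14.3 and 15.6 CPM, and its adjusted p was 0.0558 without knockout 1 and 0.122 without knockout 2. B3gnt2, a polylactosamine enzyme, was at 43.3, 48.8, 29.4 and 27.3 CPM and fell (log2 fold change -0.70, edgeR adjusted p = 0.011). The other 13 did not pass. In all 13.3% of the list passed, where 9.25% of all tested genes did, and the list's median was -0.02. With knockout 1 or knockout 2 left out, 2 genes of it fell.

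Lysosomal and extracellular breakdown of glycosaminoglycans held 6 genes that rose, 1 that fell and 14 that did not pass, with a median log2 fold change of 0.30. The share that passed was 33.3%, where 9.25% of all tested genes passed, 3.62% upward and 5.63% downward. Ids, the iduronate sulfatase deficient in Hunter syndrome, was at 76.5, 74.9, 108 and 109 CPM and rose by 0.52 on the log2 scale (SE 0.068, edgeR adjusted p = 0.0102). Gusb, the lysosomal glucuronidase, was at 60.9, 52.1, 78.5 and 79.0 CPM (log2 fold change 0.48, edgeR adjusted p = 0.0278). Arsb, which removes 4-O-sulfate, was at 13.7, 14.0, 18.6 and 20.3 CPM (log2 fold change 0.49, edgeR adjusted p = 0.0398), and without knockout 2 its adjusted p was 0.11. Idua and Hyal2 rose as well. Cemip, which acts in hyaluronan breakdown outside the cell, was at 40.6, 62.5, 3.78 and 10.6 CPM and fell by 2.84 on the log2 scale (SE 0.432, edgeR adjusted p = 0.0149). The number that rose was 3 without knockout 1, 2 without knockout 2 and 1 with no filter on low counts.

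**Figure D4:**
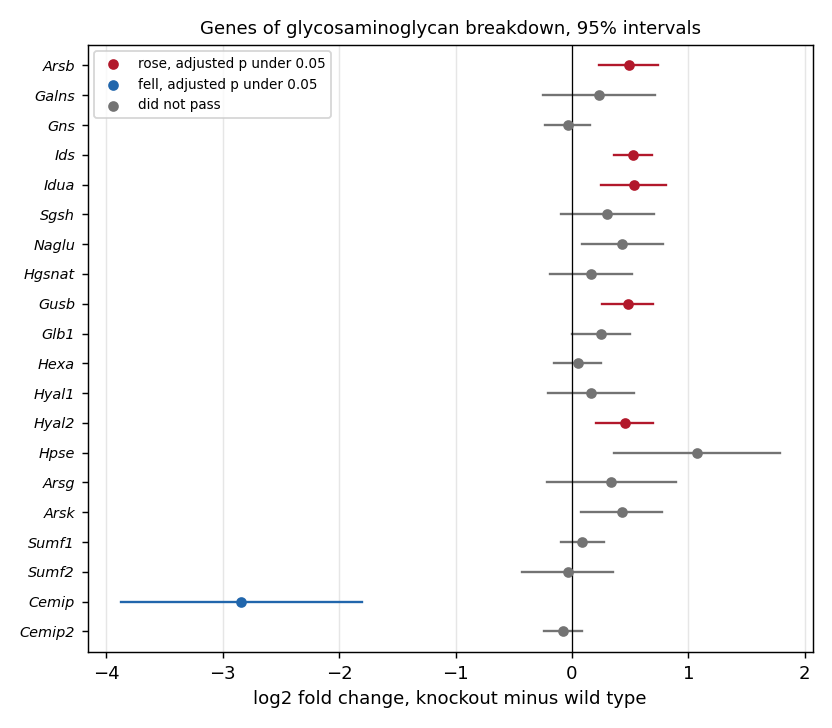
Log2 fold change, knockout minus wild type, of 20 of the 21 tested genes of glycosaminoglycan breakdown, with 95% confidence intervals as lines. The 5 plotted genes that rose (red) lie near 0.5, Cemip (blue) at -2.84, and the 14 others (grey) did not pass.

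In the authors' deposited table of DESeq2 results, 8 members had an adjusted p under 0.05 upward and 4 downward, where 3.33% and 5.19% of its 17529 genes did so, or 8.52% in all. These 12 genes are the 8 named above with Slc35d1 and Sulf2 upward and Csgalnact2 and Glce downward. Csgalnact1 was the 1 member that the authors' deposited table marked as up, with a log2 fold change of 1.13, and the smallest absolute log2 fold change among genes it marked was 1.0.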

How the data were processed

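Sample titles gave the group and replicate number of 4 RNA-seq libraries. Bowtie2 2.2.5 and build mm9 were used, per the submitters' processing notes; the counting tool, annotation and strand setting were not given in the sources used here. Per gene and library, the authors deposited an expected count, an estimate that need not be whole, and an FPKM value, per the file headers. The authors also deposited a DESeq2 comparison with mean normalized counts per group (a signal scale), the log2 fold change and raw and adjusted p-value of each gene, per the file headers. Genes that a library's table lacks were set to 0.

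After rounding, expected counts were tested in R 4.3.3 with edgeR 4.0.16 (TMM scaling, filterByExpr, quasi-likelihood F test), with Benjamini-Hochberg adjustment over 13773 genes and calls at an adjusted p under 0.05. CPM values are TMM-scaled. The SE is the log2 fold change over the root of F. Counts depend on gene length, so levels of different genes were compared in FPKM only. No build mm9 genome was used, so upstream sequences come from RefSeq on GRCm38.p6, kept where the start lay within 200 bases of a listed transcript's start. The biological coefficient of variation was 10.3%, and 2 residual degrees of freedom limit what can pass. Between libraries of 1 group, counts differed by a chi-square per gene of 19.0 and 20.8, above sampling noise, so none was treated as a duplicate. Nothing in the labels says that replicates are separate animals or cultures, so p-values measure only the spread between these libraries, which may be technical. Sequences of the same gene family can share reads, which the counting may split.

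The 42 members, the related lists and the marker lists were chosen with earlier results of these data known. Values are given in full for members that passed and for the 2 most abundant by FPKM in each role, for Kdm6a and Kdm6b, and for up to 4 passing genes of each related list; other genes named were chosen after their values were seen. Alternatives were other scalings (RLE, upper quartile), no filter, a replicate block, summed transcript entries, DESeq2 1.42.0, limma 3.58.1 on log2(FPKM + 1) and log2(FPKM + 0.1), and leaving out each library. The fitting code was tested on simulated data. Values of some genes counted in these lists are not reported here.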

Additional observations from a re-analysis of the deposited data

How the results depend on the processing

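All 8 members that passed kept their direction in every alternative run, which their non-overlapping groups in these same libraries made nearly certain beforehand. With 2 libraries per group, leaving out 1 leaves a lone library that is assumed to vary like the other group. Leaving out a wild type library removed every call: 0 of all genes passed, with 3442 of 14121 genes (without wild type 1) and 2587 of 14130 (without wild type 2) at an unadjusted edgeR p under 0.05. Over the 4 libraries left out, members passing ranged from 0 to 6 upward and 0 to 5 downward, and all tested genes from 0 to 450 upward and 0 to 825 downward. Without knockout 1, 4 members rose and 2 fell, and without knockout 2, 6 rose and 5 fell. Core proteins ranged from 0 to 6 upward and 0 to 5 downward, donor supply outside the members from 0 to 2 and 0 to 1, chain synthesis outside the members from 0 to 1 and 0 to 2, and breakdown from 0 to 3 and 0 to 1. Kdm6a ranged from -0.93 to -0.80 and Kdm6b from -1.43 to -1.27 on the log2 scale.

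The labels give replicate numbers but no shared source, and deviations of same-numbered libraries correlated at 0.107, which with 2 libraries per group does not settle whether the numbers pair the samples. They were not treated as pairs. With a replicate block, 9 members rose and 5 fell (Csgalnact2, Glce, Hs6st2, Slc35d1, Sulf1 and Sulf2 added to the 8), 949 genes rose and 1367 fell over all (16.8%), 6 core proteins rose, donor supply outside the members had 5 upward and 1 downward, and 2 chain synthesis genes outside the members fell. With DESeq2, 8 members rose and 4 fell, where 9.16% of 17547 genes passed, 4 core proteins rose, 1 donor supply gene and 2 chain synthesis genes outside the members fell. RLE scaling and summed transcript entries each also gave 2 such chain synthesis genes downward.

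With no filter on low counts, 5 members rose and 1 fell, out of 265 and 455 genes, with 0 upward in donor supply and in chain synthesis outside the members and 1 in breakdown. With limma on log2(FPKM + 1), 1 member fell and 506 genes did, and on log2(FPKM + 0.1) 1 and 494. Without a filter, limma called 0 of 17575 genes, so 0 members and 0 genes of each list, while 22 members and 4107 genes had an unadjusted p under 0.05; Kdm6a was at -0.73 and Kdm6b at -1.21 there. The cause was not tested.

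Members near 0 that changed sign were never called. In the limma fits with pseudocounts of 0.1 and 1, the latter with or without a filter, B3galt6 was at 0.029 and 0.0265, Chsy1 at 0.0197 and 0.0190, Ext1 at 0.0022 in each, Extl3 at 0.0329 and 0.0307, and Hs6st1 at 0.0044 and 0.0040. Extl3 was at 0.0025 with DESeq2, 0.0078 with no filter and 0.0109 with upper-quartile scaling. Over libraries left out, B4galt7 ranged from -0.11 to 0.24, B3galt6 from -0.13 to 0.12, Chsy1 from -0.0291 to 0.0042, Ust from -0.0714 to 0.16, Ext1 from -0.13 to 0.0736, Extl3 from -0.0803 to 0.0859, Hs6st1 from -0.10 to 0.0451 and Impad1 from -0.0496 to 0.0858. The low depth of Chst13 and Chst3 limits what can be said of them.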
